A study of Homo sapiens with 4 samples.

Results

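Genes that encode the splicing factors with a U2AF homology motif (UHM), their paralogs and the partner protein SF1 were examined for a change in mRNA level when a compound aimed at the UHM of U2AF1 was added. The 10 genes were U2AF1, U2AF1L4, U2AF1L5, U2AF2, RBM39, RBM17, PUF60, SF1, UHMK1 and ZRSR2, and they were found by their symbol among the 64873 entries of the gene table. For each symbol the entry with the highest mean count over the 4 libraries was taken, and 8 further entries that carry one of these symbols are described as well, which makes 18 in all. The cells were of the K562 line, an erythroleukemia line, in which the S34F mutant of U2AF1 was overexpressed. The 4 libraries all came from these cells, so no culture without the mutant was available for comparison. In 2 libraries the cells had received the solvent DMSO, and in 2 they had received SF1-8 at 30 μM. Both treatments lasted 48 h. In this text SF1-8 always means the compound and SF1 the gene. The labels do not state whether replicates were separate cultures, or whether the line is a single clone, so p-values here measure the spread between these libraries, which may be technical.

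A UHM is a fold related to the RNA recognition motif that binds a short peptide, the UHM ligand motif (ULM), around a tryptophan of the partner protein, rather than RNA. At the start of splicing, SF1 binds the branch point, U2AF2 the polypyrimidine tract and U2AF1 the AG at the 3′ end of the intron. U2AF1 and U2AF2 are held together by the UHM of U2AF1 and the ULM of U2AF2, and U2AF2 holds SF1 through its own UHM. SF3B1, a protein of the U2 snRNP with several ULMs, later takes the place of SF1. RBM39, RBM17 (also called SPF45) and PUF60 carry UHMs of the same kind, UHMK1 is a kinase with a UHM that phosphorylates SF1, and ZRSR2 is the relative of U2AF1 that serves the minor class of introns. Mutations of serine 34 in the first zinc finger of U2AF1 recur in myelodysplastic syndromes.

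The site of the mutation shows why a pair of the entries must be read together. The codon for residue 34, in capitals, is shown with 30 bases of coding sequence on either side, in transcripts of GENCODE version 29 on GRCh38. The U2AF1 stretch lies at chr21:43104315-43104377, that of U2AF1L5 at chr21:6495993-6496055 and that of U2AF1L4 at chr19:35745125-35745187, each on the minus strand and within the coding part of 1 exon.
U2AF1: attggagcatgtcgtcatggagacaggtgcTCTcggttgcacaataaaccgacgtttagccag
U2AF1L5: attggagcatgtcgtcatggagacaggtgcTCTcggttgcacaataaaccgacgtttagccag
U2AF1L4: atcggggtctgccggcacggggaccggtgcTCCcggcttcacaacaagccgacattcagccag
The first pair of stretches is identical, and U2AF1L4 differs from them at 16 of 63 positions. These are reference sequences and not reads, so the level of the mutant allele cannot be taken from them or from the gene totals.

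Over the whole coding sequence of 720 bases, U2AF1 and U2AF1L5 had 0 mismatches, whereas U2AF1L4 (660 bases) matched U2AF1 at 72.1% of aligned positions. U2AF1L5 is a second copy of U2AF1 on the same chromosome of this build. Among 50-base windows of the principal U2AF1 transcript, 96.8% also occurred in a transcript of U2AF1L5, and 100% of the U2AF1L5 windows occurred in U2AF1. For U2AF2, PUF60, SF1 and UHMK1 0% of the windows occurred in a transcript of another gene, and for RBM39 and RBM17 it was 3.98% and 2.14%, shared with AL034370.1 and RBM17P4. ZRSR2 shared 25.0% of its windows with other genes, most of them with transcripts named SRP19 and ZRSR2P1. U2AF1L4 shared 44.1%, most of them with AD000671.2, which overlaps it. The values of U2AF1, U2AF1L5, ZRSR2 and U2AF1L4 are therefore uncertain as values of single genes, since the way shared reads were divided is not given in the sources used here.

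**Figure D1:**
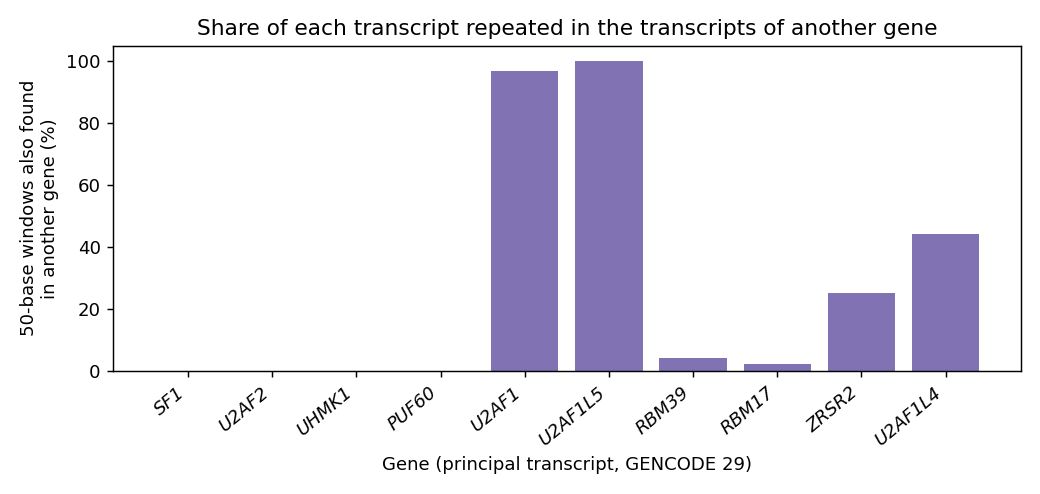
Percentage of 50-base windows of each gene's principal GENCODE 29 transcript that also occur, on either strand, in a transcript of another gene, with genes ordered by level. The bars of U2AF1 and U2AF1L5 stand at 96.8% and 100%, and 4 genes stand at 0%.

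The total count per library lay between 45522905 and 67554610, with DMSO 1 the smallest. The counts are estimates in which 4 is the commonest value above 0, so no counting error was computed. Markers of the K562 line were present, with the erythroid transcription factor GATA1 at 75.9 to 79.1 FPKM (fragments per kilobase of length, scaled by the authors to the depth of the library) and the summed level of 8 marker entries between 260 and 286 FPKM. A list of 6 fibroblast or stroma markers summed to 9.86 and 4.70 FPKM with DMSO and to 2.45 and 0.591 with SF1-8, with LUM at a count of 0 in both SF1-8 libraries and DCN in 1 of them. Of these 6 markers, 4 had an unadjusted p under 0.05 and 0 an adjusted p under 0.05 in edgeR. The shares of all tested genes were 4.33% and 0.042%. The list holds COL1A1, COL1A2 and COL3A1, which the paper on these same libraries already reports as lowered by SF1-8. The comparison with all tested genes is therefore no independent evidence. Lymphocyte markers (4 genes) summed to 5.79 and 5.15 FPKM with DMSO and 4.35 and 4.24 with SF1-8, of which CD3D alone made up 5.14 and 4.68 with DMSO and 3.91 and 3.82 with SF1-8, with CD3E and MS4A1 at a count of 0 in at least 1 library. Monocyte markers (3 genes) summed to between 4.23 and 5.84 FPKM in the 4 libraries, of which LYZ alone made up 5.80 and 4.08 with DMSO and 4.40 and 4.23 with SF1-8. CD14 was at counts of 0 and 4 with DMSO and of 12 and 12 with SF1-8, so that its groups did not overlap (unadjusted p = 0.167 and adjusted p = 0.970 in edgeR). The part of these markers in the results below was not tested. Fewer cells of a type and less RNA per cell cannot be told apart in these bulk libraries.

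None of the 10 genes was called different between SF1-8 and DMSO. In edgeR, with quasi-likelihood tests and p-values adjusted over 26167 genes, 0 of 10 had an adjusted p under 0.05, against 0.042% of all tested genes. Even at an unadjusted p under 0.05 the count was 0 of 10, against 4.33% of all tested genes, and DESeq2 and limma also gave 0 of 10 at both thresholds, where the shares of all tested genes at an unadjusted p under 0.05 were 4.43% with DESeq2, 5.71% with limma on log2(FPKM + 1) and 5.72% with limma on log2(FPKM + 0.1). At an adjusted p under 0.05, DESeq2 called 0.623% of all tested genes and limma 0% at both pseudocounts. The log2 fold change was above 0 for 5 genes and below 0 for 5, with a median of 0.0058 beside -0.011 over all tested genes. With library sizes alone as the scaling, U2AF1L5, RBM39 and PUF60 turned from above to below 0, while the median of all tested genes moved to -0.058. The absence of a call does not show that levels were equal, but the intervals bound the size of a change. For 8 of the 10 genes the 95% interval of the log2 fold change lay within 0.5 of 0, and for 9 within 1. All 10 intervals included 0. The exceptions to the narrower bound were U2AF1L4 and ZRSR2, both expressed near 1 FPKM.

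**Figure D2:**
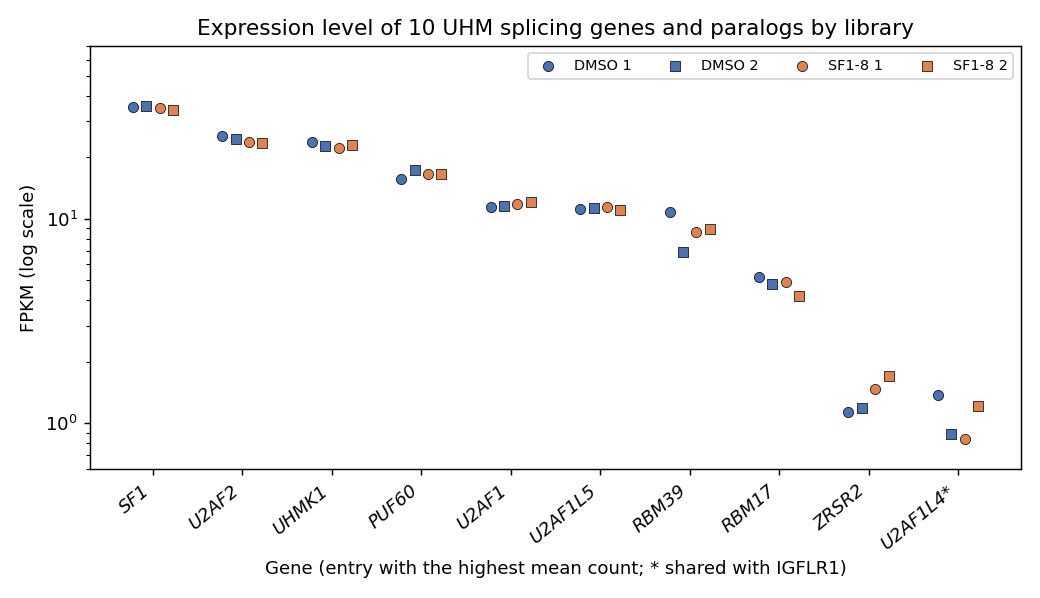
FPKM of the 10 genes in each library on a log scale, blue for DMSO and orange for SF1-8, circles for replicate 1 and squares for replicate 2. The levels run from SF1 at about 35 FPKM to ZRSR2 and U2AF1L4 near 1, and the spread between the DMSO libraries is widest for U2AF1L4 and RBM39.

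In level per gene length the order with DMSO was SF1, U2AF2, UHMK1, PUF60, U2AF1, U2AF1L5, RBM39, RBM17, ZRSR2 and U2AF1L4, from 35.4 down to 1.14 FPKM. The places of U2AF1 and U2AF1L5 are those of single entries and depend on how their shared reads were divided. Added together, these entries had 0.886 and 0.931 times the FPKM of U2AF2 with DMSO. SF1 stood at the 97.3 percentile of mean FPKM among tested genes and U2AF1L4 at the 48.7 percentile. Over the 4 libraries the ranges of U2AF2 (23.4 to 25.5) and UHMK1 (22.1 to 23.7) overlapped, as did those of ZRSR2 (1.14 to 1.70) and U2AF1L4 (0.836 to 1.38), while the other 7 pairs of neighbours in this order did not overlap. A caution applies to such comparisons between genes, because the number of counts that make 1 FPKM, which follows the length assigned to an entry, differed. It was 3.33 times as high for RBM39 as for U2AF2, and the RBM39 entry holds 51 transcripts, 16 of them annotated as retained introns and 15 as targets of nonsense-mediated decay, against 9 transcripts in the U2AF2 entry.

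The large subunit U2AF2, which reads the polypyrimidine tract, lies on chromosome 19 of GRCh38 from 55654146 to 55674716. It had 25.5 and 24.6 FPKM with DMSO and 23.8 and 23.4 FPKM with SF1-8. Both SF1-8 libraries were below both DMSO libraries. SF1-8 minus DMSO came to -0.058 in log2 units, with a standard error of 0.068 and an edgeR adjusted p of 0.970, with a 95% interval of the fold from 0.852 to 1.08.

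The small subunit U2AF1, whose UHM is the intended target of SF1-8, lies on chromosome 21 of GRCh38 from 43092956 to 43107570. It had 11.4 and 11.5 FPKM with DMSO and 11.9 and 12.0 FPKM with SF1-8. The SF1-8 libraries were both higher, and the replicates of each group lay close together. In edgeR the difference was 0.085 ± 0.072 (SE) in log2 units at an adjusted p of 0.970, with a 95% interval of the fold from 0.935 to 1.20. The copy U2AF1L5, on chromosome 21 from 6484623 to 6499256, had 11.2 and 11.3 FPKM with DMSO and 11.4 and 11.1 with SF1-8, and here the groups overlapped. On the log2 scale it differed by 0.024 ± 0.075 (SE), an edgeR adjusted p of 0.987.

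In every library the level of U2AF1L5 was close to that of U2AF1, with a ratio of 0.979 and 0.986 with DMSO and of 0.959 and 0.924 with SF1-8. Because these entries share their coding sequence, the sum is the better measure of the gene, and with the counts of both added the log2 fold change of U2AF1 was 0.055 (adjusted p = 0.970) in edgeR. This sum was chosen after the near-equal levels had been seen. It holds the mRNA of the endogenous gene and, where transgene reads map there, that of the overexpressed mutant, which cannot be told apart in gene totals. The U2AF1 entry joins 11 transcripts, of which GENCODE version 29 lists 3 as coding, 6 as retained introns and 2 as targets of nonsense-mediated decay.

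The balance of both subunits of U2AF was taken as a ratio of FPKM within each library, which does not depend on the scaling between libraries. The ratio of U2AF1 to U2AF2 was 0.448 and 0.469 with DMSO and 0.498 and 0.514 with SF1-8. The SF1-8 libraries were both higher, with means of 0.458 ± 0.0147 (SD, n = 2) for DMSO and 0.506 ± 0.0114 (SD, n = 2) for SF1-8, a difference of 10.5%. With U2AF1L5 added to U2AF1, the ratio was 0.886 and 0.931 with DMSO and 0.976 and 0.990 with SF1-8, a difference of 8.20%. On estimated counts, which are not scaled by length, the ratio of U2AF1 to U2AF2 was 0.974 and 1.02 with DMSO and 1.08 and 1.12 with SF1-8, because the U2AF1 entry had 2.17 times the counts per FPKM of the U2AF2 entry. The level of the ratio thus depends on the length assigned to each entry. The relative difference between groups was 10.5% on both scales. This agreement is no check of the difference, because the assigned lengths are the same in both groups. The exact two-sided permutation test gave p = 0.33 for both FPKM ratios, the smallest value that 2 libraries against 2 can give, so this test cannot reach 0.05 here. The ratio of SF1 to U2AF2 was 1.38 and 1.45 with DMSO and 1.47 and 1.45 with SF1-8.

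**Figure D3:**
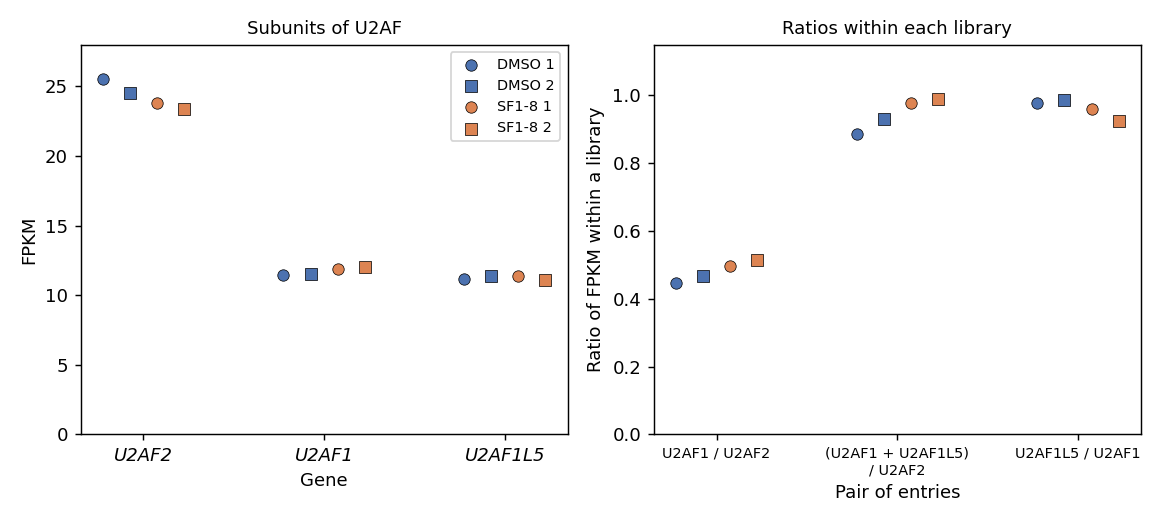
Left, FPKM of U2AF2, U2AF1 and U2AF1L5 in each library. Right, ratios of FPKM within each library, with colours and symbols for the DMSO and SF1-8 libraries as in the legend. The U2AF1 to U2AF2 ratio is 0.448 and 0.469 with DMSO against 0.498 and 0.514 with SF1-8, while U2AF1L5 stays just under U2AF1 in all 4 libraries.

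SF1, which binds the branch point, lies on chromosome 11 of GRCh38 from 64764606 to 64778786. It had 35.2 and 35.6 FPKM with DMSO and 34.9 and 33.98 FPKM with SF1-8. The SF1-8 libraries were both lower, by a small margin. SF1-8 minus DMSO came to -0.012 in log2 units, with a standard error of 0.070 and an edgeR adjusted p of 0.992, with a 95% interval of the fold from 0.876 to 1.12. UHMK1, the kinase of SF1 (chromosome 1 from 162497251 to 162529629), had 23.7 and 22.8 FPKM with DMSO and 22.1 and 22.9 with SF1-8. Its groups overlapped, and its interval was the narrowest in width, from 0.884 to 1.10 in fold (adjusted p = 0.988 in edgeR).

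Among the proteins with a UHM like that of U2AF1, PUF60 binds uridine-rich tracts and can work beside U2AF2. PUF60, on chromosome 8 from 143816344 to 143829338, had 15.7 and 17.4 FPKM with DMSO and 16.6 and 16.5 FPKM with SF1-8, so that the SF1-8 libraries lay between the DMSO libraries. Its fold change had a 95% interval from 0.856 to 1.21 (adjusted p = 0.989 in edgeR). RBM17, an early spliceosome protein, lies on chromosome 10 from 6089034 to 6117447 and had 5.19 and 4.81 FPKM with DMSO and 4.91 and 4.17 FPKM with SF1-8. SF1-8 2 was the lowest library, and SF1-8 1 lay between the DMSO libraries. In edgeR the difference was -0.11 ± 0.11 (SE) in log2 units at an adjusted p of 0.970, with a 95% interval of the fold from 0.768 to 1.12.

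RBM39, a splicing factor and transcriptional coactivator, lies on chromosome 20 from 35701347 to 35742312. It had 10.8 and 6.91 FPKM with DMSO and 8.65 and 8.88 FPKM with SF1-8. The SF1-8 libraries agreed closely and lay between DMSO libraries that differed by 0.64 on the log2 scale. The log2 difference of 0.024 ± 0.19 (SE, edgeR adjusted p = 0.993) thus averages over 2 unlike controls. It was 0.33 without DMSO 1 and -0.22 without DMSO 2, with unadjusted p of 0.0121 and 0.0395 in edgeR and adjusted p of 0.805 and 0.620, so its direction depends on which control is used.

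The paralogs expressed at low levels were less well determined. U2AF1L4, a close relative of U2AF1 (72.1% identical over all aligned coding bases), shares its entry on chromosome 19 from 35738801 to 35745442 with IGFLR1 and AD000671, so the value is not that of U2AF1L4 alone. The entry had 1.38 and 0.887 FPKM with DMSO and 0.836 and 1.22 FPKM with SF1-8. The highest library was one with DMSO and the lowest one with SF1-8, and the groups overlapped over most of their range. On the log2 scale it differed by -0.11 ± 0.28 (SE), an edgeR adjusted p of 0.983, and its sign turned without DMSO 1 (0.18) or without SF1-8 1 (0.14). As a share of the summed FPKM of U2AF1, U2AF1L5 and U2AF1L4, this entry made up 5.77% and 3.73% with DMSO and 3.47% and 5.02% with SF1-8 (exact two-sided permutation test, p = 0.667).

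ZRSR2, which recognises the 3′ splice site of the minor class of introns, had the largest fold change of the 10 genes. Its main entry, on chromosome X from 15790472 to 15823260, joins the 3 annotated transcripts and had 1.14 and 1.18 FPKM with DMSO and 1.48 and 1.70 FPKM with SF1-8. The SF1-8 libraries were both higher, from counts of 138 and 200 with DMSO and of 258 and 286 with SF1-8. SF1-8 minus DMSO came to 0.47 in log2 units, with a standard error of 0.21 and an edgeR adjusted p of 0.970 and an unadjusted p of 0.0719, and the 95% interval of the fold reached from 0.959 to 2.01. ZRSR2 thus did not pass the test.

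ZRSR2 was also named by 4 assembled entries without a strand, each of which lies wholly in introns of the gene in GENCODE version 29. The entry from 15794391 to 15795817 had 1.47 and 1.08 FPKM with DMSO and 1.02 and 1.09 with SF1-8. The fitted log2 fold changes of the 4 entries were all below 0, from -0.24 to -1.79, and none passed the test (unadjusted p between 0.128 and 0.440 in edgeR). The summed counts of these 4 entries were 1.49 and 0.965 times the count of the main entry with DMSO and 0.702 and 0.573 times with SF1-8. With the counts of the 5 entries added, an alternative chosen after seeing the data, the log2 fold change of ZRSR2 was 0.033 (adjusted p = 0.992) in edgeR, against 0.47 for the main entry.

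**Figure D4:**
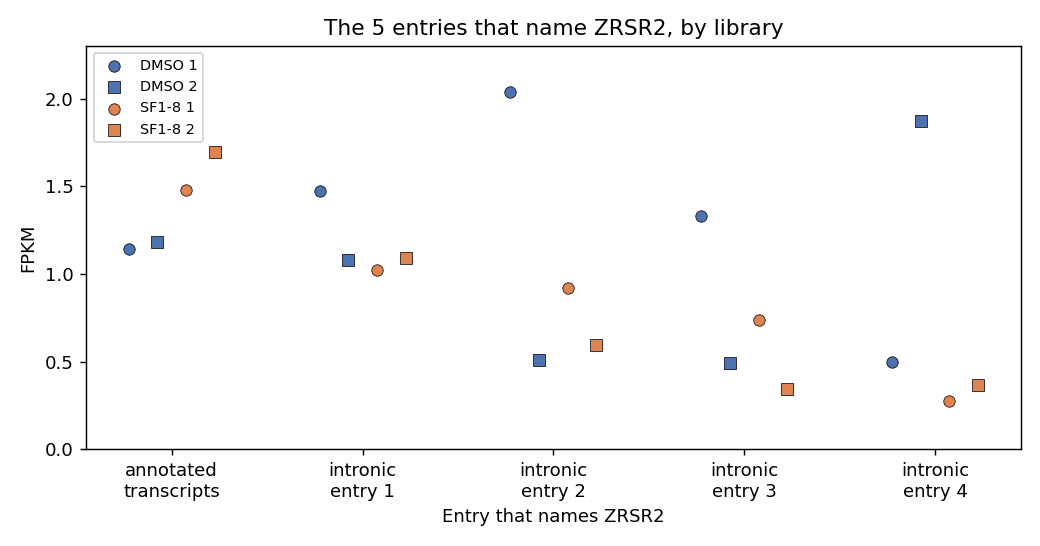
FPKM of the 5 entries that name ZRSR2 in each library. The main entry of annotated transcripts is higher in both SF1-8 libraries (1.48 and 1.70) than with DMSO (1.14 and 1.18), and in each intronic entry the highest library is one with DMSO.

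The other 4 further entries were named for RBM39, SF1 and UHMK1. The RBM39 entry (chromosome 20 from 35727456 to 35728674) is assigned to the strand opposite to the gene and lies in an intron, and its levels lay between 1.64 and 3.24 FPKM, the DMSO libraries being the lowest and the highest. An entry of UHMK1 from 162501958 to 162503537 is also intronic and on the opposite strand, with 1.85 and 1.41 FPKM with DMSO and 1.32 and 1.33 with SF1-8. The remaining pair, of SF1 and UHMK1, lies outside the annotated genes. The SF1 entry ranged from 0.861 to 1.79 FPKM. The UHMK1 entry had 1.96 and 0.566 FPKM with DMSO and 0.373 and 0.0801 with SF1-8. Its counts were only 27 and 11 with DMSO and 8 and 2 with SF1-8. Both SF1-8 libraries were lower, with a log2 fold change of -2.23 (unadjusted p = 0.112 and adjusted p = 0.970 in edgeR). Of the 8 further entries, 0 passed an adjusted or an unadjusted p of 0.05 in edgeR, with 7 fold changes below 0 and 1 above. DMSO 1, the library with the smallest total, was the highest of the 4 libraries in 6 of these entries.

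On FPKM, the groups did not overlap for 4 of the 10 genes, U2AF1 and ZRSR2 with SF1-8 higher and U2AF2 and SF1 with SF1-8 lower. Over all tested genes the groups did not overlap for 34.2%, with SF1-8 higher for 14.2% and lower for 20%, so the share of the 10 genes is near the background. In 7 of the 10 genes the gap between group means was smaller than the wider of the gaps between replicates, on a log2 scale, the exceptions being U2AF1, U2AF2 and ZRSR2.

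**Figure D5:**
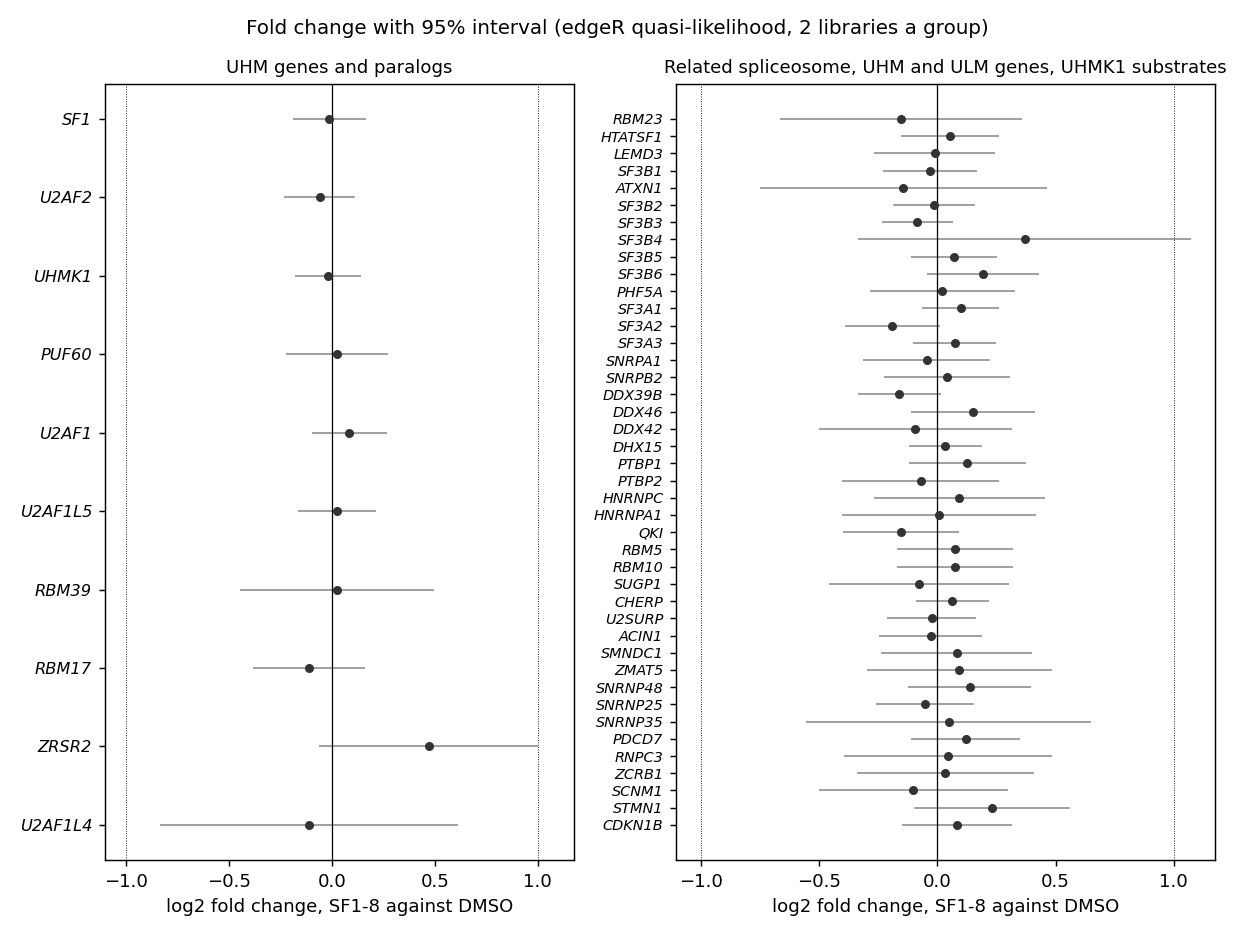
Log2 fold change with SF1-8 against DMSO (points) and its 95% interval (lines) in edgeR, for the 10 genes on the left and, on the right, 42 related genes (other UHM and ULM proteins, proteins of the U2 and minor spliceosomes, regulators and UHMK1 substrates). Dotted lines mark a 2-fold change, and all intervals include 0.

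Related genes were read from a list of 42, which holds other UHM and ULM proteins, proteins of the U2 snRNP and its addition, regulators of the 3′ splice site, minor spliceosome proteins and substrates of UHMK1. In edgeR 0 of 42 had an adjusted p under 0.05 and 0 of 42 an unadjusted p under 0.05, against the 4.33% of all tested genes given above. DESeq2 also gave 0 at both thresholds, and limma gave 0 adjusted and 2 unadjusted on both log2(FPKM + 1) and log2(FPKM + 0.1), where 5.71% and 5.72% of all tested genes passed unadjusted. For 11 of the 42 genes (SF3B3, SF3A2, DDX39B, DDX46, PTBP1, RBM5, CHERP, U2SURP, RNPC3, SCNM1 and STMN1) the entry also names another gene, so those values and the counts that include them are of merged entries and not of single genes. The fold changes of 25 genes were above 0 and of 17 below, with a median log2 value of 0.039 beside -0.011 over all tested genes. For 41 of the 42 the 95% interval lay within a 2-fold change, SF3B4 being the exception.

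SF3B1, the ULM protein of the U2 snRNP, had 25.3 and 25.0 FPKM with DMSO and 22.9 and 25.5 FPKM with SF1-8, so its groups overlapped (log2 fold change -0.031, adjusted p = 0.983 in edgeR). Of the 9 other subunits of SF3B and SF3A, which bind the branch point region with U2, 6 had values above 0 and 3 below, and the most abundant, SF3B5, had 134 and 127 FPKM with DMSO and 132 and 138 with SF1-8. The smallest unadjusted p of the list belonged to SF3A2, at 0.0591 in edgeR (adjusted p = 0.970), with 11.6 and 10.7 FPKM with DMSO and 9.80 and 9.42 with SF1-8 in an entry shared with AMH and MIR4321. SF3B4 ranged from 9.20 to 17.4 FPKM within DMSO, and its interval was accordingly wide.

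Among the 3 other UHM proteins, HTATSF1, a U2 snRNP factor, was the most abundant, with 16.7 and 16.3 FPKM with DMSO and 16.4 and 17.2 with SF1-8. The U2 snRNP proteins SNRPA1 and SNRPB2 and the 4 helicases of U2 addition had log2 fold changes between -0.16 and 0.15. SNRPB2 had 10.4 and 9.32 FPKM with DMSO and 9.49 and 10.4 with SF1-8. DHX15, the most abundant helicase, had 31.2 and 29.4 FPKM with DMSO and 30.3 and 30.5 with SF1-8. Of 12 regulators of the polypyrimidine tract or 3′ splice site, 7 were above 0 and 5 below, and HNRNPA1 had 116 and 135 FPKM with DMSO and 139 and 108 with SF1-8. Of 8 minor spliceosome proteins that act beside ZRSR2, 6 were above 0 and 2 below, between -0.10 and 0.14 on the log2 scale. The most abundant of them, SNRNP25, had 18.6 and 17.7 FPKM with DMSO and 17.2 and 17.2 with SF1-8. STMN1, which encodes stathmin, a substrate of UHMK1, in an entry shared with MIR3917, had 51.5 and 43.0 FPKM with DMSO and 60.1 and 48.4 with SF1-8, again with overlapping groups (adjusted p = 0.970 in edgeR). These are totals of mRNA per gene, and transcripts, proteins and binding to the compound were not analysed here.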

How the data were processed

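RNA was depleted of ribosomal RNA and sequenced from 4 libraries of K562 cells overexpressing U2AF1 S34F. The submitters' processing notes name cutadapt, FastQC, Bowtie2, HISAT2, StringTie and hg38, without roles or versions. The authors deposited, per entry and library, an FPKM value normalized for length and depth, with 0.0001 in place of 0, and an estimated count without normalization, given as a whole number. Here, the 2095 entries without a gene name, between 0.358% and 0.421% of the counts, were left out. Counts were tested by edgeR 4.0.16's quasi-likelihood test with TMM factors and filterByExpr, in R 4.3.3, with Benjamini-Hochberg adjustment over 26167 genes. Intervals are 95% intervals from the standard error and the degrees of freedom of that test. FPKM values were not used in that test. They give levels, ratios within a library and the overlap of groups, and limma was run on them as an alternative.

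Alternatives were DESeq2 1.42.0, limma 3.58.1 on log2(FPKM + 1) and log2(FPKM + 0.1), other scalings, no filter, counts divided by 4, a replicate block, and leaving out each library. Steps were tested on simulated data. The members and lists were chosen with earlier results of these data known. All members were named. From the 42 genes, the rule named those with an unadjusted p under 0.05 and the most abundant of each role, and SF3A2 and SF3B4 were named after their values were seen. Sequences and positions come from GENCODE version 29 on GRCh38.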

Additional observations from a re-analysis of the deposited data

How the results depend on the processing

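In every alternative run, 0 of the 10 genes and 0 of the 42 list genes had an adjusted p under 0.05. At an unadjusted p under 0.05, RBM39 passed without DMSO 1 or without DMSO 2, in opposite directions, where 1341 of 27835 and 2267 of 28489 tested genes passed. Between 0 and 4 of the 42 list genes passed, with 4 without DMSO 1 and 0 without DMSO 2. Of 122 alternative fold changes of the 10 genes, 108 kept their sign, and U2AF1, U2AF2 and ZRSR2 kept it in all. The size was less stable. Without single libraries the log2 fold change ranged from 0.040 to 0.14 for U2AF1 and from -0.073 to -0.034 for U2AF2. For ZRSR2 it ranged from 0.38 to 0.57 without single libraries, but was 0.26 with limma on log2(FPKM + 1). With all ZRSR2 entries summed it was only 0.033. With library sizes alone the log2 fold change was 0.039 for U2AF1 and -0.105 for U2AF2. The adjusted p lay between 0.620 and 1.00. With library sizes alone, the log2 fold change turned to -0.022 for U2AF1L5, -0.032 for RBM39 and -0.018 for PUF60. With limma, U2AF1L5 turned to -0.0026 on log2(FPKM + 1) and -0.0028 on log2(FPKM + 0.1). Without single libraries the log2 fold change ranged from -0.026 to 0.080 for U2AF1L5, from -0.22 to 0.33 for RBM39, from -0.23 to 0.014 for RBM17, from -0.084 to 0.15 for PUF60, from -0.059 to 0.041 for SF1, from -0.031 to 0.0028 for UHMK1 and from -0.40 to 0.18 for U2AF1L4, so that each changed sign. A group left with 1 library was assumed to vary like the other. The log2 change of the U2AF1 to U2AF2 ratio was 0.14 and lay between 0.11 and 0.18 without single libraries, and the difference in the share of U2AF1L4 lay between -1.52 and 0.52 percentage points. Over all genes, 11 were called in the test as reported, 163 with DESeq2, 31 with no filter, 0 with the replicate block, 0 with limma at both pseudocounts, and between 0 (without DMSO 1) and 30 (without SF1-8 1) without single libraries, and the cause was not tested. The labels give only a number and do not state whether same-numbered libraries were handled together. The deviations of same-numbered libraries had a correlation of 0.016 over 26167 genes. With 2 libraries a group this value does not settle the question. With the replicate block 0 of the 10 genes were called. Genes near 1 FPKM, U2AF1L4 and ZRSR2, had the widest intervals of the 10.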
